A study of Mus musculus with 6 samples.

Results

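The 5 genes described here settle or mark the choice between the CD4 helper and the CD8 cytotoxic T cell lineages: Cd4 and Zbtb7b on the CD4 side, and Cd8a, Cd8b1 and Runx3 on the CD8 side. They are 5 of 21751 protein-coding genes in the GENCODE vM39 annotation of mouse genome build GRCm39. Their open regions were taken by position only, as those with a peak summit inside the gene body or within 3 kb of an annotated transcription start, and 16 of 62876 regions met that rule. The assay was ATAC-seq, which maps open chromatin with a transposase that cuts accessible DNA and leaves sequencing adapters there, and the cells were unsorted white blood cells of mouse peripheral blood after lysis of red cells. The 3 control and 3 HADA libraries carried no genotype or drug in their labels. HADA stands for high-altitude de-acclimatization. Per the study's methods, young adult male C57BL/6j mice spent weeks in a hypobaric chamber that mimicked high altitude and were then returned to normal oxygen. Per its results text, the control mice stayed in normal oxygen throughout. The day after return on which this blood was drawn, and whether blood of several mice was pooled, are not given in the sources used here.

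A T cell leaves the thymus with either the coreceptor CD4, which binds class II MHC, or CD8, which binds class I MHC. The transcription factor ThPOK, encoded by Zbtb7b, holds cells in the CD4 lineage and represses CD8-side genes, whereas RUNX3 keeps Cd4 silent and Zbtb7b off in the CD8 lineage. RUNX proteins act on Cd4 through a silencer in its first intron, and the T cell form of Runx3 is made from the more distal of its promoters. Cd8a and Cd8b1 encode the chains of the CD8 dimer and lie side by side, with enhancers between and around them. Several of these genes are also used outside T cells: some mouse dendritic cells carry CD4 or CD8 alpha, and natural killer cells and some myeloid cells use Runx3.

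The summit sequences of the regions nearest the starts are given first, because they show which parts of these loci were open in blood cells. All are GRCm39, plus strand, written 5′ to 3′, and the capitals mark matches to the searched motifs. RUNX factors were searched as TGTGGT, ETS factors as AGGAAG, TCF/LEF factors as CTTTGA and GATA factors as AGATAA, on both strands, and no match in the printed windows overlapped another. The Cd4 windows are chr6:124862359-124862559, at the common summit in the first intron, and chr6:124863036-124863236, at the summit that control 3 had inside the same region. The second Cd4 window was added after the values were seen. The Zbtb7b window, shortened to leave out an annotated untranslated exon, is chr3:89301249-89301383, the Cd8b1 window is chr6:71299556-71299756 and the window at the distal start of Runx3 is chr4:134847675-134847875.
Cd4 first intron, common summit: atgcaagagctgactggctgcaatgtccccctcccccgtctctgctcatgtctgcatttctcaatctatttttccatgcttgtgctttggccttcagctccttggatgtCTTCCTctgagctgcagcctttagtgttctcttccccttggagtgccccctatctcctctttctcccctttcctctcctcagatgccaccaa
Cd4 first intron, control 3 summit: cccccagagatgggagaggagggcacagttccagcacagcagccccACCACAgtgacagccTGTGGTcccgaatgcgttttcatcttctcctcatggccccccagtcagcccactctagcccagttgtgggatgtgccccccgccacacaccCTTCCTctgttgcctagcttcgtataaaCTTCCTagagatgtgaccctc
Zbtb7b start: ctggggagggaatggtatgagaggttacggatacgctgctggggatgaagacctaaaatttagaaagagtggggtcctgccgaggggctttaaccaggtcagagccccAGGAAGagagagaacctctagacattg
Cd8b1 start: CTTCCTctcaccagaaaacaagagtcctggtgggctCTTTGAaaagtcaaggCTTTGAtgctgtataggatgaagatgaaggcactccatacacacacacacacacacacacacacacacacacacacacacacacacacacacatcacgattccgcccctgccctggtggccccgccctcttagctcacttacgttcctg
Runx3 distal start: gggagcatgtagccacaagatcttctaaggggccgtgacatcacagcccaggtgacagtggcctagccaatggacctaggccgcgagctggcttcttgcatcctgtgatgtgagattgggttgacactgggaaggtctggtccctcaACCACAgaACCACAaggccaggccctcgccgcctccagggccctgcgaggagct

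The control 3 summit of Cd4 held 2 RUNX matches, in opposite orientation and 15 bases apart from start to start, at positions 47 and 62 of the printed window. RUNX matches also lay close together at the distal start of Runx3, at positions 148 and 156. The Cd8b1 start held TCF/LEF matches at positions 37 and 53, and no other of the 16 member regions held one. Over all 62876 regions, 17.6% of windows of the same full length around the summit held a RUNX match, 31.1% an ETS match, 11.3% a TCF/LEF match and 7.0% a GATA match. Of the 16 member windows, 2 held RUNX, 7 ETS, 1 TCF/LEF and 0 GATA. These are matches of letters and not measured binding. No stretch of the 50 bases around a summit occurred more than once in the genome at 15 of the 16 regions, and it occurred 2 times at a weak Cd4 region 13.4 kb into the gene.

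The depth of the libraries was close but not equal. The authors' lists held between 34045 and 41475 peaks per control library and between 44044 and 45799 per HADA library. The height of a peak is given as its summit pileup, the number of reads stacked at the summit, which was recovered from the deposited fold enrichment and p-value of each peak. The genome-wide background pileup ranged from 1.69 to 2.05 over the control libraries and from 1.99 to 2.34 over the HADA libraries. At that background the smallest pileup that could be called was 7 to 9, and it was higher where the surrounding background was higher. A gene without a peak may therefore still have been open below the height needed there. Over the 23970 regions called in all 6 libraries the median pileup was between 49 and 58 per control library and between 77 and 92 per HADA library, and with each library divided by its background the mean log2 of these medians was 0.38 higher in HADA. The log2 differences of single shared regions over background had a median of 0.34. Differences below are therefore relative to the median shared region of each library unless another scale is named.

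The makeup of the blood samples also differed. Heights were summed over the start regions of a marker list, as multiples of the library's median shared region. A start region without a called peak added nothing to its sum, so part of the gaps may lie in peak calling. The B cell markers stood at 0.510 to 5.10 in control and 11.9 to 12.5 in HADA. Neutrophil markers stood at 5.60 to 13.6 in control and 0.938 to 2.48 in HADA, and monocyte markers at 2.75 to 3.24 and 1.25 to 1.61. T cell markers stood at 3.55 to 7.38 in control and 10.4 to 11.1 in HADA, and natural killer markers overlapped between the groups. Cd2, which B cells also use, had the highest start region of the T cell list and no peak in control 3. Without it, a choice made after seeing the data, the control libraries had T cell sums of 5.59, 4.64 and 3.55 and the HADA libraries 6.36, 7.64 and 7.48, still apart. Control 3 stood apart within its group, with the lowest B and T cell sums and the highest neutrophil sum of the 6 libraries and no peak at the start of 6 of the 8 B cell markers, so some values are also given without it. In unsorted blood, fewer cells of a type and less accessibility per cell cannot be told apart. The part of these markers in the results below was not tested.

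Of the 16 regions, 7, or 43.8%, were called in all 6 libraries and could be compared, beside 38.1% of all regions. Limma called 1 of the 7 higher and 1 lower in HADA, against 17.9% higher and 24.1% lower of all 23970 shared regions, 42.0% in either direction. Both calls fell within Zbtb7b, and they went in opposite directions. By fold rank, which orders the deposited fold enrichments within each library, the count was again 1 higher and 1 lower, against 6.57% and 4.78% of all shared regions. The median difference over the 7 regions was 0.15 on the log2 scale, beside -0.040 over all shared regions. The groups did not overlap at 3 regions that were higher and 1 that was lower in HADA, against 29.4% and 31.2% of all shared regions, 60.6% in either direction. None of the 16 regions was present in all libraries of 1 group and absent from the other, beside 7.01% of all regions for HADA and 1.88% for control.

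**Figure D1:**
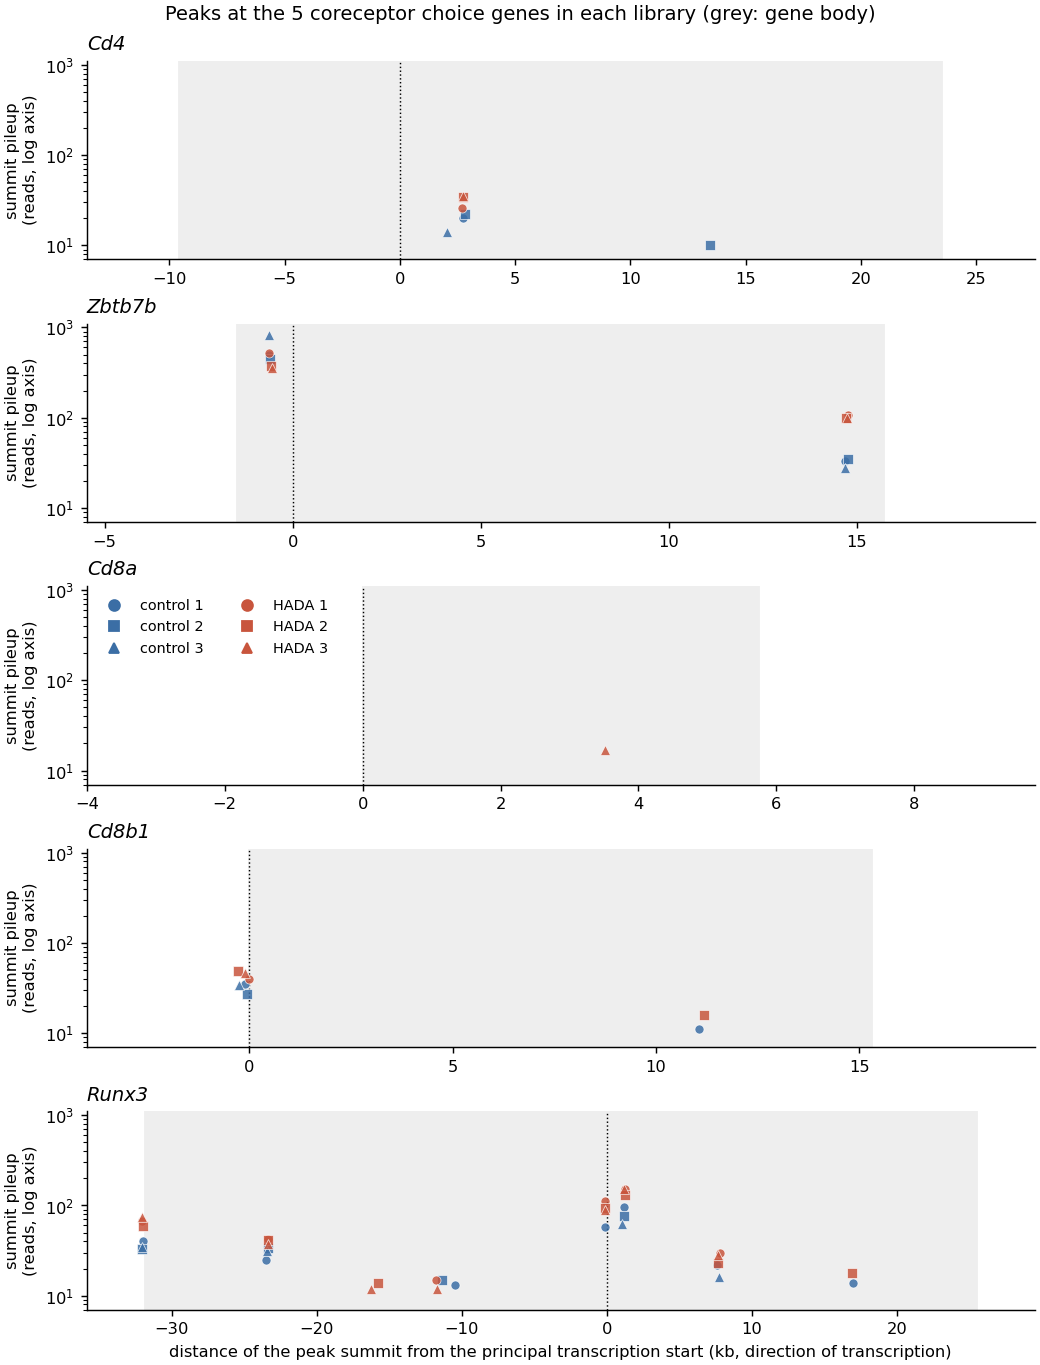
Each point is 1 peak of 1 library at 1 of the 5 genes: the x axis gives the distance of its summit from the principal start in kb along the direction of transcription, and the y axis its summit pileup on a log scale. Blue is control, red is HADA, the marker shape is the replicate and grey marks the gene body. Zbtb7b shows its tall start peak and a 3′ peak at which all 3 HADA libraries stand above all 3 controls, Runx3 has peaks spread over its length, and Cd8a has a peak in 1 library only.

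Zbtb7b (ENSMUSG00000028042.17, minus strand of chromosome 3, 89284942 to 89302144) had the tallest region of the 5 genes. Its start region spanned 89300719 to 89302058, with a summit 614 bases upstream of the principal start, in an intron of longer transcripts. The region also held 16 starts of Gm15417, a long non-coding RNA on the opposite strand, the nearest 39 bases from the summit, and accessibility there cannot be assigned to either gene. Control libraries 1 to 3 had summit pileups of 492, 447 and 814, and HADA libraries 1 to 3 had 526, 371 and 351. In these raw heights control 3 was far above the rest and HADA 1 lay above both other controls. Among the shared regions of its own library the region ranked at percentiles 99.0, 99.1 and 99.7 in control and 96.2, 94.8 and 93.6 in HADA, so every HADA library ranked it lower than every control.

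The log2 height of the Zbtb7b start over the median shared region was 3.39 ± 0.58 (SD, n = 3) in control and 2.30 ± 0.20 (SD, n = 3) in HADA. The difference was -1.09 ± 0.29 (SE), 2.12-fold lower in HADA, with a limma adjusted p of 0.0226. Without control 3 the difference was -0.81 with a limma adjusted p of 0.0156. Without HADA 2 or without HADA 3 the direction held and the limma adjusted p was 0.0751 and 0.0753. Divided by library background instead, the control heights were 291, 218 and 445 and the HADA heights 225, 186 and 154, and the groups overlapped, since HADA 1 lay above control 2 (two-sided exact permutation p = 0.2, where 0.1 is the smallest possible). On that scale the limma difference was -0.71 with an adjusted p of 0.0395. Limma used the same SE of 0.30 there for every shared member region, so this p does not measure the spread at this one.

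The other Zbtb7b region lay near the 3′ end, at 89285557 to 89286542, with its summit 14.7 kb downstream of the principal start in the 3′ untranslated part of the last exon. Its pileup was 33, 35 and 28 in control and 107, 98 and 99 in HADA, and all HADA libraries were above all controls by a wide gap. Its log2 height was -0.76 ± 0.092 (SD, n = 3) in control and 0.29 ± 0.065 (SD, n = 3) in HADA. The difference was 1.04 ± 0.16 (SE), 2.06-fold higher in HADA, with a limma adjusted p of 0.00898. It kept its direction and stayed past the threshold on both other scales and with any single library left out, with an adjusted p between 0.00702 and 0.0447 when 1 library was left out. The letters of this window were 73.1% G or C, beside a median of 49.8% over all regions.

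Within Zbtb7b the height of the 3′ region as a share of the start region was 6.71%, 7.83% and 3.44% in control and 20.3%, 26.4% and 28.2% in HADA. The balance between these regions needs no scaling between libraries. The groups did not overlap, but this follows from the opposite separations of the regions given above and is no separate finding. On the log2 scale this ratio was -4.14 ± 0.63 (SD, n = 3) in control and -2.01 ± 0.25 (SD, n = 3) in HADA. Calls in both directions within 1 gene were not peculiar to Zbtb7b: among 3576 genes with at least 2 shared regions, 327, or 9.14%, had them.

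**Figure D2:**
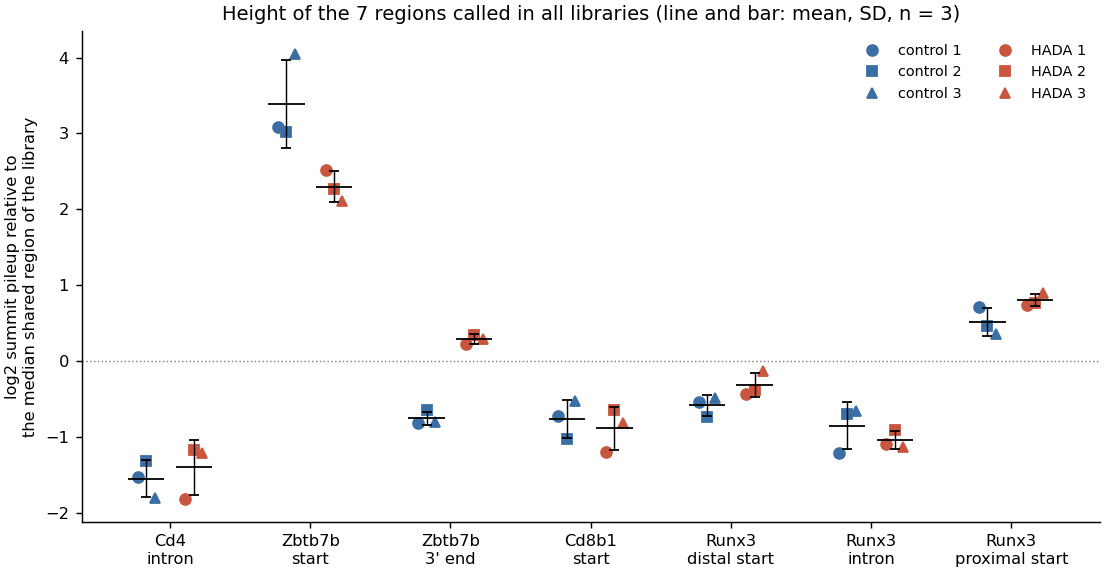
The y axis gives the log2 summit pileup relative to the library's median shared region (dotted line at 0) for the 7 regions called in every library, with points for the 3 control (blue) and 3 HADA (red) libraries and the mean and SD of each group in black. The Zbtb7b start is lower and the Zbtb7b 3′ end higher in every HADA library than in every control, while the Cd4, Cd8b1 and Runx3 intron points overlap.

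Cd4 (ENSMUSG00000023274.16, minus strand of chromosome 6, 124841655 to 124874758) had no called peak over its principal start at 124865184 in any library. Its nearest region lay in the first intron, at 124862047 to 124863332, and was called in all 6. The pileup was 20, 22 and 14 in control and 26, 34 and 35 in HADA, low in every library. The region ranked at percentiles 8.40 to 12.1 of the shared regions in control and 14.6 to 25.1 in HADA, without overlap. The value of 8.40 was that of control 3, whose summit lay elsewhere in the region, as given below. On the scale of the median shared region, however, the log2 heights overlapped, at -1.56 ± 0.24 (SD, n = 3) and -1.40 ± 0.36 (SD, n = 3), and the difference of 0.15 ± 0.23 (SE) did not pass (limma adjusted p = 0.625). Its 95% interval ran from -0.39 to 0.69, and without control 3 the difference was -0.027.

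The summit of this Cd4 region lay 2702 to 2814 bases downstream of the principal start in 5 libraries and about 2.0 kb downstream in control 3. The control 3 summit was the window with the close pair of RUNX matches. The silencer of Cd4 is known to lie in this intron, but its position was not taken from any file here, and whether either summit falls in it was not tested. The only other Cd4 region, 13.4 kb into the gene, was called in control 2 alone with a pileup of 10, and it is the region whose summit sequence occurs 2 times in the genome.

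Cd8b1 (ENSMUSG00000053044.10, plus strand of chromosome 6, 71299772 to 71315087) was open at its start in all libraries, at 71299093 to 71300197. The same region held the start of Smyd1, a neighbouring gene transcribed the other way that encodes a methyltransferase of muscle, 439 bases from the summit. The pileup was 35, 27 and 34 in control and 40, 49 and 46 in HADA. Although each HADA pileup was above each control, the log2 heights relative to the median shared region overlapped, at -0.76 ± 0.25 (SD, n = 3) in control and -0.89 ± 0.28 (SD, n = 3) in HADA. The difference was -0.13 ± 0.21 (SE; 95% interval -0.63 to 0.37; limma adjusted p = 0.650), and its sign turned to 0.25 when heights were divided by library background (limma adjusted p = 0.494). Without control 3 the difference was -0.064. A second region, 11.1 kb into the gene, was called with a pileup of 11 in control 1 and 16 in HADA 2.

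Cd8a (ENSMUSG00000053977.14, plus strand of chromosome 6, 71350411 to 71356157), which encodes the alpha chain found in both CD8 dimers, had a single peak in a single library. It was called in HADA 3 with a pileup of 17 and lay 3516 bases downstream of the start, in an untranslated part of the principal transcript. No library had a peak at the Cd8a start. Cd8a starts 35.3 kb beyond the end of Cd8b1, and peaks between them that fell outside the rule are given below with the flanks.

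Runx3 (ENSMUSG00000070691.12, plus strand of chromosome 4, 134847952 to 134905301) held 9 of the 16 regions, 3 of them in all libraries. Its distal start lies 31.9 kb upstream of the principal start. The distal start region, at 134847389 to 134848168, had a pileup of 40, 33 and 35 in control and 68, 59 and 74 in HADA, and also held 3 starts of the non-coding RNA Gm16225, the nearest 73 bases from the summit. The groups did not overlap, yet the log2 difference relative to the median shared region was 0.27 ± 0.17 (SE; limma adjusted p = 0.235). The region just inside the principal start, at 134880165 to 134881694, had a pileup of 95, 76 and 63 in control and 154, 131 and 151 in HADA. Its difference was 0.29 ± 0.17 (SE; limma adjusted p = 0.198), again without overlap between the groups and without passing the test, and without control 3 it was 0.16 (limma adjusted p = 0.437). Divided by library background, the differences were 0.65 and 0.67, with limma adjusted p of 0.0607 and 0.0529.

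The balance between the Runx3 promoters overlapped between the groups. The log2 ratio of the distal to the proximal region was -1.10 ± 0.22 (SD, n = 3) in control and -1.12 ± 0.08 (SD, n = 3) in HADA. The third Runx3 region in all libraries lay in the intron between the promoters, at 134855636 to 134856670, with a pileup of 25, 34 and 31 in control and 43, 41 and 37 in HADA. Its difference was -0.19 ± 0.20 (SE; limma adjusted p = 0.472), and it turned to 0.19 when divided by library background and, in normal scores, 0.13 by fold rank. With 1 library left out it ran from -0.36 without control 1 to -0.11 without control 2, and was -0.12 without HADA 3. A region 126 bases upstream of the principal start, 75.6% G or C, was called in control 1 with a pileup of 57 and in all HADA libraries with 113, 94 and 88, but not in control 2 or control 3. The pileup of 57 was only 3.58-fold over its surrounding background, so an uncalled peak there need not have been low.

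**Figure D3:**
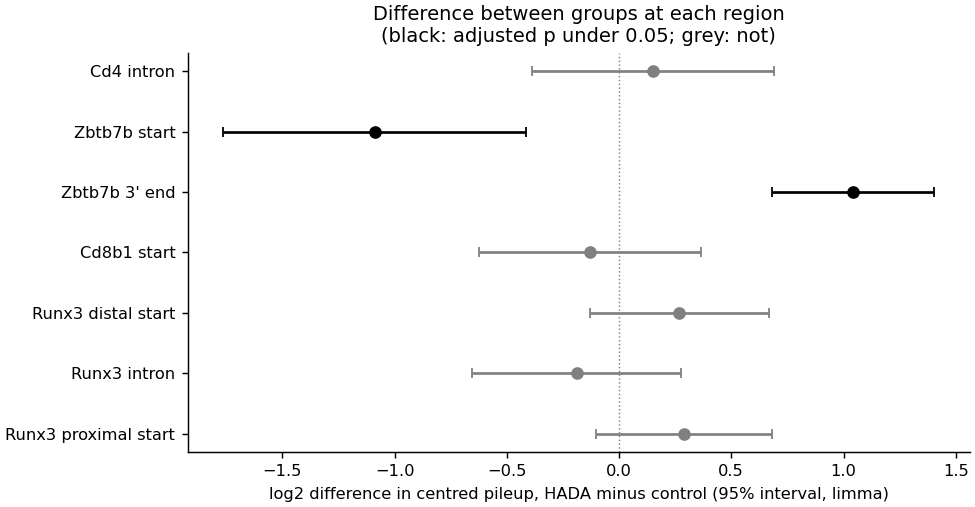
The x axis gives the log2 difference between HADA and control in pileup relative to the median shared region, with its 95% interval from limma, for the 7 regions called in all libraries. The 2 Zbtb7b intervals lie on opposite sides of 0, near -1.09 and 1.04, and the 5 others include 0.

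The number of regions called overlapped between the groups on both sides. On the CD4 side, 3, 4 and 3 regions were called in control and 3, 3 and 3 in HADA. On the CD8 side, 9, 5 and 5 were called in control and 7, 9 and 9 in HADA, and Runx3 alone gave 7, 4 and 4 and then 6, 7 and 7 of these. The CD8-side counts came apart without control 1, which left 5 and 5 against 7, 9 and 9, and with the strongest 34045 peaks of each library they were 8, 5 and 5 against 6, 6 and 6, with equal means. Over the 9 regions not called in every library, 5 were called in more HADA than control libraries and 2 in fewer, or 31.3% and 12.5% of the 16, beside 35.5% and 22.7% of all regions. Their pileups ran from 10 to 113.

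The contrast of the sides was taken per library as the mean height of the CD8-side genes minus that of the CD4-side genes, from the regions shared by all libraries, with Cd8a absent for lack of one. On the log2 scale it was -0.34, -0.61 and -0.30 in control and -0.50, -0.48 and -0.46 in HADA. The groups overlapped, and the difference of their means was -0.067. That value averaged the opposite changes within Zbtb7b. With only the shared region nearest the principal start of each gene, the contrast was 0.55 higher in HADA and the groups did not overlap. For Runx3 this was the region just inside its start. The Zbtb7b start differed most of these regions, by -1.09, beside 0.15 at Cd4, -0.13 at Cd8b1 and 0.29 at Runx3. Only the Zbtb7b start passed limma. The log2 ratio of the Zbtb7b start to the Runx3 distal start alone was 3.97 ± 0.50 (SD, n = 3) in control and 2.62 ± 0.35 (SD, n = 3) in HADA. Its groups did not overlap, which follows from the opposite separations of these regions given above. The Runx3 distal start by itself was not called (limma adjusted p = 0.235). The ratio of the coreceptor genes themselves, the Cd8b1 start to the Cd4 intron, was 0.81, 0.30 and 1.28 in control and 0.62, 0.53 and 0.39 in HADA on the log2 scale, with overlap.

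A second scale set each gene against pan-T genes of the same library, a list of 12 genes used by CD4 and CD8 T cells alike, of which 7 had a start region in all libraries. The pan-T mean on the log2 scale was -0.70, -0.77 and -1.10 in control and -0.54, -0.27 and -0.24 in HADA, higher in every HADA library. Against it the difference between HADA and control was -0.35 for the Cd4 intron region, -0.63 for Cd8b1 and -0.38 for Runx3 as the mean of its 3 regions, each lower in HADA without overlap between the groups. Of the Runx3 regions only the intron one was apart by itself, at -0.69, while the distal start at -0.24 and the proximal region at -0.22 overlapped. Zbtb7b as the mean of both regions differed by -0.53 with overlap, which split into -1.59 at the start and 0.54 at the 3′ end, both without overlap. Without control 3 the Zbtb7b mean differed by -0.29, still with overlap, and Cd8b1 by -0.43 and Runx3 by -0.27, both without overlap. Without control 1 or without HADA 1 the Zbtb7b mean differed by -0.70 and -0.66 and the groups no longer overlapped. On this scale 50.4% of all shared regions were lower in HADA without overlap and 8.57% higher, and among regions nearest a principal start 37.0% were lower. By fold rank the Cd4 difference was -0.094 in normal scores and the groups overlapped for Cd4 and Runx3, and with a −log10 q-value of at least 5 the groups overlapped for Cd4 and no longer for Zbtb7b.

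**Figure D4:**
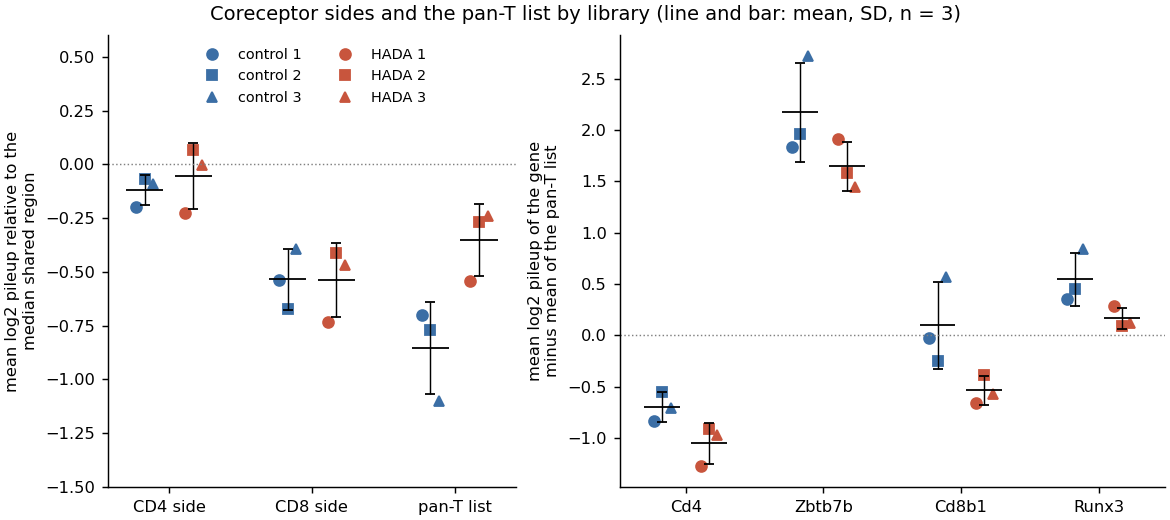
The left panel gives, for each library, the mean log2 pileup of the CD4 side, the CD8 side and the pan-T list relative to the library's median shared region (dotted line at 0), and the right panel the mean of each gene minus the pan-T mean. Blue is control, red is HADA and black marks the mean and SD of 3 libraries. The sides overlap between groups, the pan-T list is higher in every HADA library, and Cd4, Cd8b1 and Runx3 lie lower against it in HADA.

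Other genes known from this lineage choice were counted at their start regions, where limma called 19.0% of 9635 start regions higher and 5.60% lower, 24.6% in either direction, and the median difference was 0.12. On the helper side 2 of 5 tested genes rose and 0 fell, with a median of 0.52. They were Gata3, a factor that acts upstream of Zbtb7b, with pileups of 35, 36 and 28 in control and 114, 93 and 92 in HADA (0.97 ± 0.16 SE, limma adjusted p = 0.00905), and Tox, needed for CD4 lineage development (0.77 ± 0.17 SE, limma adjusted p = 0.0129). Satb1, a chromatin organizer of T cells, had a difference of 0.52 ± 0.21 (SE) that did not pass (limma adjusted p = 0.0794). By fold rank limma called 0 of the helper list (1 at an unadjusted p under 0.05), and divided by background 4 were called higher. By fold rank 11.3% of all shared regions were called, and divided by background 49.3%, of which 31.0% higher and 18.3% lower.

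On the cytotoxic side limma called 0 of 8 tested genes, with a median of 0.24. At an unadjusted p under 0.05 the count was 2, by fold rank 0 were called, and divided by background 2 were called higher. Il7r, whose interleukin signal favours CD8 fate, came nearest with 0.50 ± 0.19 (SE; limma adjusted p = 0.0609). Tbx21, encoding T-bet, had a difference of 0.49 (limma adjusted p = 0.0834), and Cbfb, the partner of RUNX proteins, 0.26 (limma adjusted p = 0.194). Of 8 tested regulators shared by both lineages 1 rose, Lef1, with pileups of 46, 39 and 32 in control and 160, 130 and 151 in HADA (2.46-fold higher, limma adjusted p = 0.00789). Next were Tcf3, encoding the E protein E2A, with -0.60 (limma adjusted p = 0.0635), and Ets1, with 0.42 (limma adjusted p = 0.0642). Of 7 pan-T genes 2 rose, Lat (0.93 ± 0.18 SE, limma adjusted p = 0.0111) and Cd3e (0.55 ± 0.17 SE, limma adjusted p = 0.0335), with a median of 0.55, and Cd5 came next with 0.48 (limma adjusted p = 0.0680). By fold rank 1 pan-T gene was called higher and 1 shared regulator lower. Divided by background, 5 pan-T genes and 4 shared regulators were called higher and 0 of either lower.

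**Figure D5:**
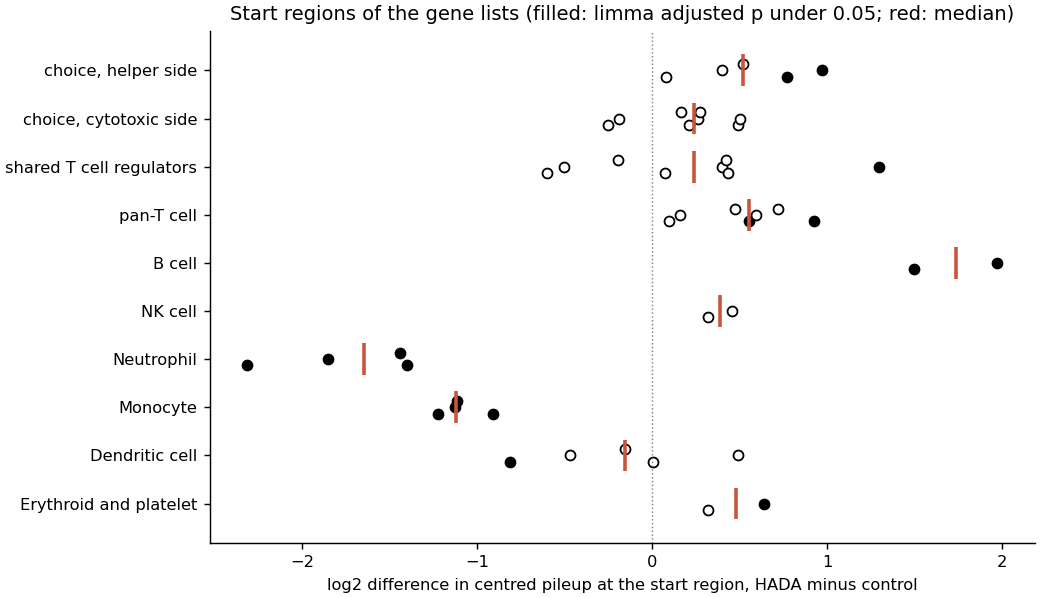
Each circle is the start region of 1 gene called in all libraries, placed by its log2 difference between HADA and control relative to the median shared region, with filled circles for a limma adjusted p under the threshold and a red line at the median of the list. Rows are gene lists: the T cell lists lie mostly to the right of 0, the 2 B cell genes farther right, and the 4 neutrophil and 4 monocyte genes all to the left.

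The marker lists moved as follows at single genes. Of 2 tested B cell markers both rose, with a median of 1.74, and of 4 neutrophil and 4 monocyte markers all fell, with medians of -1.65 and -1.12. Of 5 dendritic cell markers 1 fell, of 2 natural killer markers limma called 0 (0 at an unadjusted p under 0.05), and of 2 erythroid and platelet markers 1 rose. Divided by background, both B cell, both natural killer and both erythroid and platelet markers were called higher, all 4 neutrophil and 3 of the 4 monocyte markers lower, and of the dendritic cell markers 0 were called lower and 1, Flt3, higher. By fold rank limma called 0 of the genes of these 6 lists (1 monocyte and 2 erythroid and platelet genes at an unadjusted p under 0.05). Regions were missing altogether at Camp, Klrk1, Siglech, Cd209a, Gata1, Gp9 and Hba-a1, and, among the lineage genes, at Cd40lg.

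The genes whose start regions were most like those of the members over the 6 libraries were found by Euclidean distance in centred log2 pileup among 10825 genes. For the Zbtb7b start they were Tlr6, which encodes a receptor for microbial lipopeptides (distance 0.229, r = 0.993), Psme2 and Crlf2. For the Cd4 intron region they were Pros1 (distance 0.401), Tmem221 and Cd247, the zeta chain of the T cell receptor complex. For the Cd8b1 start they were Snf8 (distance 0.324), Camk2n2 and Hrob. None was sought for Runx3 or Cd8a, whose regions nearest the principal start were not called in every library. The median distance to all compared genes was 6.17 for Cd4, 4.88 for Zbtb7b and 4.58 for Cd8b1. These likenesses are descriptions over 6 libraries of 2 groups.

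Within 25 kb of the gene bodies, nearer to a member than to any other protein-coding gene, lay 16 more regions, none of them at Cd4 or Zbtb7b. The 4 assigned to Cd8a and the 4 assigned to Cd8b1 were each missing from at least 1 library. A region 3812 bases upstream of Cd8a had pileups of 15 and 12 in control 1 and control 3 and 16, 26 and 18 in HADA. A region 20.2 kb downstream of the Cd8b1 start had 17 and 11 in control 1 and control 3 and 23, 27 and 30 in HADA. Control 2 had no peak at either, and only regions called in all libraries were tested. At Runx3, 3 of 8 flanking regions were in all libraries and limma called none (0 at an unadjusted p under 0.05 and 0 by fold rank). Divided by library background 1 of them, 53.9 kb upstream of the principal start, was higher by 0.69 (limma adjusted p = 0.0461), beside 31.0% of all shared regions called higher on that scale. A region 37.1 kb upstream of the principal start was present only in HADA, with pileups of 16, 17 and 22, which made 1 of the 16 flanking regions, or 6.25%, beside 7.01% of all regions. A region 40.6 kb downstream went the other way, with 33, 37 and 35 in control, no peak in HADA 1 and 10 and 9 in HADA 2 and HADA 3.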

How the data were processed

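ATAC-seq was performed on leukocytes of peripheral blood per the labels and the study's methods, although its results text speaks of mononuclear cells. Per the submitters' processing notes and the methods, the authors used Trimmomatic for trimming, Bowtie2 for alignment to GRCm39, Picard against duplicates and MACS2 for peaks, library by library. MACS2 options and any Tn5 shift are not given in the sources used here. The deposited lists hold, per peak, the fold enrichment of its summit over the surrounding background, its p-value and q-value as −log10, and a score, all from the authors' peak caller. The whole-number summit pileup was solved from the deposited fold and −log10 p-value, taking the fold to include a pseudocount of 1 as is the default of MACS2 (solved for 100% of peaks in each library, 21 chromosomes used). Peaks sharing at least 1 base were joined into regions, and the log2 pileup was centred on the library's median over regions called in all 6 libraries. Groups were compared by limma 3.58.1 (R 4.3.3, two-sided, Benjamini-Hochberg over all shared regions, threshold 0.05), by exact permutation where named, or described by overlap. The solver and the limma fit were tested on simulated data. Intervals and p-values measure the spread between 3 libraries per group, which may be technical in part, as separate animals are not stated. The limma p-values of heights divided by library background are an exception, as each shared member region had the same SE of 0.30. They follow the size of the difference and not the spread of the single region. Python 3.11.15 and scipy 1.17.1 were used.

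The members and gene lists were chosen with earlier results of these data known. All member regions are accounted for. Values per library are given for the region nearest each principal start, each called region and the other shared regions, and log2 differences for the 3 genes of each lineage or T cell list with the smallest p. The 3 most similar genes are named for members whose nearest-start region was in all libraries. Fold rank is the normal score of the rank of the deposited fold within a library. Sequences were read from GRCm39.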

Additional observations from a re-analysis of the deposited data

How the results depend on the processing

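The alternatives were fold rank, scaling by library background, a −log10 q-value of at least 5, joining summits within 250 bp, a 1 kb distance from starts, flanks of 25 kb, the strongest 34045 peaks per library, the nearest-start region only, and each library left out. Over all shared regions limma called 4291 higher and 5769 lower (42.7% higher among calls), 1574 and 1146 by fold rank (57.9%), and 7432 and 4396 scaled by background (62.8%), so the balance of directions depends on the scale. With 1 library left out these counts ran from 737 to 4813 and from 2021 to 5917, lowest without HADA 2. At the members the higher call remained at 1 in every such fit and the lower call ranged from 0, without HADA 2 or HADA 3, to 1. Regions present only in HADA ranged from 0 to 1 at the members, the 1 arising without control 1 (Runx3 next to its principal start) or without HADA 1 (a Runx3 intron region). The CD8-side count was 2 higher in HADA, 6 with 25 kb flanks (then without overlap), 0 with the strongest 34045 peaks per library, and from 1.33 to 3.33 with 1 library left out (3.33 and without overlap without control 1). The contrast of the sides moved from -0.067 to 0.55 with only the shared region nearest each principal start, was 0.019 with summits joined within 250 bp (which leaves out Cd4), and ranged from -0.19 (without control 2, then without overlap) to -0.011 with 1 library left out. Zbtb7b against pan-T genes moved from -0.53 to -1.59 with its start only and ranged from -0.70 (without control 1) to -0.29 (without control 3) with 1 library left out, and by fold rank, in normal scores and not log2 units, the differences against pan-T genes were -0.094 for Cd4, -0.32 for Zbtb7b, -0.45 for Cd8b1 and -0.17 for Runx3. Signs turned, without a call, at Cd4 (-0.027 to 0.36 with 1 library left out, below 0 without control 3), at Cd8b1 scaled by background (0.25) and with 1 library left out (-0.26 to 0.028, above 0 without HADA 1), and at the Runx3 intron by background (0.19) and fold rank (0.13). Joining summits within 250 bp gave no Cd4 value, since control 3 has its summit elsewhere. The cause of these shifts was not tested.

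Same-numbered libraries did not deviate together (correlations -0.080, 0.075 and -0.38). Libraries of different numbers ran from -0.47 to 0.49, so with so few libraries a pairing by number was neither seen nor excluded. With the replicate block the Zbtb7b adjusted p were 0.0252 and 0.0110, all-region counts were 2991 higher and 5660 lower, and no call at a member changed. Peaks below a pileup of about 7 to 9 cannot be seen, and where the surrounding background is high, taller ones are missed too. This bears on the regions of Cd4, Cd8a, Cd8b1 and Runx3 that were not called in every library.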
